A study of Mus musculus with 20 samples.

Results

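Transglutaminases join proteins to each other by forming bonds between glutamine and lysine side chains, and skin uses several of them. The account below covers the transcripts of 5 mouse transglutaminase genes, Tgm1, Tgm2, Tgm3, Tgm5 and Tgm7, among the 16669 genes measured in ear pinnae. They were chosen by name as the transglutaminases of skin, and Tgm7 and Tgm2 were set against Tgm1, Tgm3 and Tgm5 because of their levels in these same libraries. The levels of the 5 genes and the differences between their groups are therefore given as a description, with no p-value. All 5 passed the filter on low values.

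Mouse right ears were injected into the skin with a cytokine in phosphate-buffered saline (PBS), and total RNA of the ear pinnae was sequenced in bulk. The groups were IL-4, IL-13 and IL-31, each at 0.1 µg/µl in 10 µl, and PBS alone as the control, with 5 libraries per group and 20 in all. IL-4 and IL-13 belong to the type 2 cytokines, IL-31 is a cytokine tied to itch, and the series concerns sensory nerves and itch. The sources used here do not give strain, age, sex, the volume of PBS or how long after injection the ears were taken. Nothing says that the 5 samples of a group came from separate animals, so errors and p-values describe the spread among these libraries only, which may be technical.

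In the outer layers of the epidermis, dying keratinocytes replace their plasma membrane with a cornified envelope of cross-linked protein and attached lipid. Tgm1 is the membrane-anchored keratinocyte enzyme that cross-links envelope proteins and attaches ceramides to them, Tgm3 is the epidermal enzyme that must be cut by a protease to become active and also works in hair follicles, and Tgm5 acts in the upper epidermis, where its loss in humans causes skin peeling. Tgm2 is tissue transglutaminase, a widely expressed enzyme of endothelium, fibroblasts and macrophages that binds GTP and cross-links extracellular matrix. Tgm7 is the least studied of the 5, and its role in skin is not established.

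On the mouse genome build GRCm38, 4 of the 5 genes lie on chromosome 2. Tgm5 (ENSMUSG00000053675) spans chr2:121046111-121085841 and Tgm7 (ENSMUSG00000079103) spans chr2:121093565-121109795, both on the minus strand and 7723 bases apart. Tgm3 (ENSMUSG00000027401) spans chr2:130012349-130050399 on the plus strand, Tgm2 (ENSMUSG00000037820) spans chr2:158116402-158146436 on the minus strand, and Tgm1 (ENSMUSG00000022218) spans chr14:55700009-55713926 on the minus strand. The catalytic cysteine that all 5 enzymes share is shown because it marks their common active site and lets the 5 genes be compared base by base. Each line gives 33 coding bases, 5′ to 3′, from the GENCODE M21 transcript, with the cysteine codon in capitals.
Tgm1: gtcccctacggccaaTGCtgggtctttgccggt
Tgm2: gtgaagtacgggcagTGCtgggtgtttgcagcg
Tgm3: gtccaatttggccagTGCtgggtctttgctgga
Tgm5: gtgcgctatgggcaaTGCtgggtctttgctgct
Tgm7: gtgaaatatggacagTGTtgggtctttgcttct
The codon is number 376 in Tgm1, 277 in Tgm2, 273 in Tgm3, 283 in Tgm5 and 185 in Tgm7, where the coding model is the shortest, with 616 codons. Between pairs of genes 22 to 27 of these 33 bases were identical, against 59.2% to 63% of bases over the whole aligned coding sequence. No stretch of 50 bases was shared between the transcripts of any pair, so a read that matches over 50 bases or more can belong to only 1 of the 5.

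The stretch before the transcription start is shown for Tgm7, for its neighbour Tgm5 and for Tgm1, because Tgm7 and Tgm1 were the members with the largest positive differences in IL-4 ears and Tgm5 adjoins Tgm7. Each line gives 250 bases upstream of the RefSeq start site on GRCm38.p6, 5′ to 3′ on the minus strand of the chromosome, with motif matches in capitals.
Tgm7, chr2:121116397-121116646: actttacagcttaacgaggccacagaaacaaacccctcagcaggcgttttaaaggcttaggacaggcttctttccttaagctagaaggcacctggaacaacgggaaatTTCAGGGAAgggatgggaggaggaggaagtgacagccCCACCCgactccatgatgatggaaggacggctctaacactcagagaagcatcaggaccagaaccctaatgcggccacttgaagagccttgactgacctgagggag
Tgm5, chr2:121085842-121086091: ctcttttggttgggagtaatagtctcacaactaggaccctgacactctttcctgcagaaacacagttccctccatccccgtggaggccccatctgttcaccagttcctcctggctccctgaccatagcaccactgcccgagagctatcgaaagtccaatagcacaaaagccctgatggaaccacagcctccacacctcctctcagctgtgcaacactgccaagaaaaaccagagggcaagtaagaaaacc
Tgm1, chr14:55713493-55713742: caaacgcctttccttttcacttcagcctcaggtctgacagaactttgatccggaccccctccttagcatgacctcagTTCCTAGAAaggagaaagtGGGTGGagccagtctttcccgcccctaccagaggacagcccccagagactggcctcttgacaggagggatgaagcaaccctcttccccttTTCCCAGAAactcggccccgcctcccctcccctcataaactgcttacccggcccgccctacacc
Motifs were searched on both strands as exact letters. Positions count back from -1, the base before the start. The general STAT motif TTCNNNGAA matched once in the Tgm7 window, at -142 to -134, and at 2 places in the Tgm1 window, at -173 to -165 and -64 to -56, and 7.02% of 32851 promoter windows of the same length hold it. The STAT6 form of this motif, whose spacer is 1 base longer, is held by 5.85% of windows and matched in none of the 3. The KLF motif CCACCC, held by 28.1% of windows, matched at -105 to -100 in the Tgm7 window and, on the opposite strand, at -154 to -149 in the Tgm1 window. The AP-1 motif TGANTCA (6.75% of windows), the GRHL motif AACNGGTT (1.79%) and the TATA box TATAAA (12.4%) matched in none of these 3, and no match overlapped another. The RefSeq start of Tgm7 lies 6601 bases from the start of the GENCODE model, so which of them the skin transcript uses is not settled here. The Tgm1 window shown lies inside the GENCODE span of Tgm1 given above, so the start of its skin transcript is not settled either. A second RefSeq start of Tgm1 held a KLF match at -10 to -5 and no STAT match, so the STAT matches of Tgm1 depend on the start chosen. The Tgm3 window held a TATA box at -28 to -23.

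Levels were compared between genes as CPM (read counts scaled to library size) per 1000 bases of exon, counting all annotated exons of a gene together. This corrects only roughly for transcript length. Tgm2 has 4608 exon bases but 3596 in the transcript used above, while Tgm7 has 2151 in both, so the order of genes close in level is approximate. By their means, Tgm1 and Tgm3 were the most abundant of the 5 per length in all 4 groups. Single PBS libraries departed from this: in PBS library 2 Tgm2 (12.2) was above Tgm1 (7.39), and in PBS library 3 Tgm2 (27.0) and Tgm5 (18) were above Tgm1 (7.04) and Tgm3 (16). Tgm1 averaged 39.7 ± 8.70 CPM per 1000 bases in IL-4 ears, 46.0 ± 16.1 in IL-13 ears, 42.2 ± 9.92 in IL-31 ears and 21.4 ± 15.1 in PBS ears (SD, n = 5). Tgm3 averaged 35.9 ± 8.68, 36.9 ± 8.98 and 37.9 ± 1.74 CPM per 1000 bases in IL-4, IL-13 and IL-31 ears, against 29.1 ± 10.5 in PBS ears. Within each group the ranges of these 2 genes overlapped. Tgm5 was the third in IL-4 and IL-13 ears, at 10.4 ± 0.906 and 11.1 ± 2.52 CPM per 1000 bases, and averaged 7.63 ± 1.16 in IL-31 ears and 10.0 ± 5.00 in PBS ears. In the IL-13, IL-31 and PBS groups its range overlapped that of Tgm2, in IL-13 ears through library 1, where Tgm2 was at 14.5 and Tgm5 at 10.2, and in IL-4 ears Tgm5 lay above Tgm2.

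The lower part of this order was not the same in every group. Tgm2 averaged 4.56 ± 2.07 CPM per 1000 bases in IL-4 ears, 6.09 ± 4.71 in IL-13 ears and 7.80 ± 2.27 in IL-31 ears, against 15.7 ± 7.75 in PBS ears. Tgm7 averaged 4.71 ± 0.71 CPM per 1000 bases in IL-4 ears, 3.10 ± 1.03 in IL-13 ears and 2.65 ± 1.09 in IL-31 ears, against 1.98 ± 0.619 in PBS ears. In PBS ears Tgm2 was the third and its mean lay well above that of Tgm7, and every PBS library had more Tgm2 than any had Tgm7. In IL-4 ears the 2 genes had nearly the same level per length, and their ranges of 2.27 to 7.84 for Tgm2 and 3.73 to 5.55 for Tgm7 overlapped.

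Tgm7 stood highest in the IL-4 ears. In log2 CPM, the scale of all values from here on, its 5 IL-4 libraries measured 3.51, 3.03, 3.33, 3.27 and 3.6, its IL-13 libraries 1.74, 3.09, 2.73, 2.76 and 3.16, its IL-31 libraries 2.49, 3.21, 2.21, 1.61 and 2.76, and its PBS libraries 2.55, 1.72, 2.51, 2.10 and 1.58. All 5 IL-4 libraries lay above all 5 PBS libraries, while the IL-13 and IL-31 libraries spread over much of both. The difference from PBS was 1.26 ± 0.29 (log2 ± SE) for IL-4, a 2.39-fold higher level, 0.60 ± 0.29 for IL-13 and 0.37 ± 0.29 for IL-31. These values rest on about 73 to 133 reads per library in IL-4 ears and 33 to 72 in PBS ears. In IL-13 ears library 1 was the lowest, and without it the difference was 0.84.

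**Figure D1:**
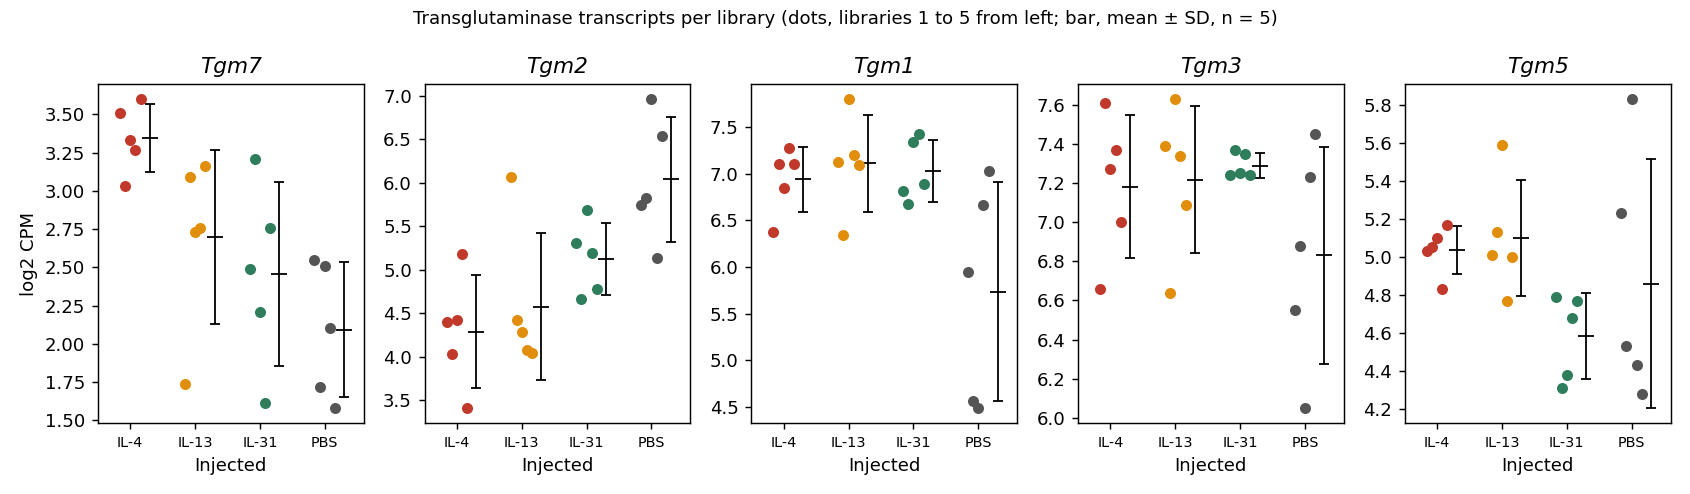
Level of each gene in log2 CPM (vertical axis, a separate scale per gene) in each of the 5 libraries per injected solution, with the mean and SD beside them. The 5 IL-4 libraries of Tgm7, at 3.03 to 3.6, lie above all PBS libraries, which end at 2.55, while for Tgm1 the PBS libraries split into 3 low and 2 that reach the cytokine range.

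Tgm7 was also the member with the largest positive difference of IL-4 from the other cytokines. The difference was 0.65 ± 0.29 for IL-4 minus IL-13 and 0.89 ± 0.29 for IL-4 minus IL-31, and the ranges overlapped in both, through IL-13 libraries 2 and 5 and IL-31 library 2. In the fit by limma over all genes, none was called between cytokines, so the background there was 0% of 16461 genes. At an unadjusted p under 0.05 there were 664 genes for IL-4 minus IL-13, 1743 for IL-4 minus IL-31 and 1200 for IL-13 minus IL-31. With no difference at all, a share of 0.05 of the 16461 genes would pass that threshold on average, more than the 664 for IL-4 minus IL-13. With libraries weighted by their quality limma called 0, 692 and 535.

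Tgm2 moved the opposite way. Its libraries measured 4.40, 4.03, 4.42, 5.18 and 3.41 log2 CPM in IL-4 ears, 6.06, 4.42, 4.28, 4.08 and 4.04 in IL-13 ears, 5.31, 4.66, 5.68, 5.19 and 4.78 in IL-31 ears, and 5.74, 5.82, 6.96, 5.13 and 6.53 in PBS ears. IL-4 library 4 overlapped the lowest PBS library by a small margin, and 4 of the 5 IL-13 libraries lay below all PBS libraries while library 1 lay among them. The log2 difference from PBS was -1.75 ± 0.39 for IL-4, a 3.36-fold lower level, -1.46 ± 0.39 for IL-13 and -0.91 ± 0.39 for IL-31. Without IL-13 library 1 the IL-13 difference was -1.83. IL-4 minus IL-31 was -0.84 ± 0.39, IL-13 minus IL-31 was -0.55 ± 0.39 and IL-4 minus IL-13 was -0.29 ± 0.39, with overlapping ranges in each. In bulk tissue, fewer cells that express a gene and less of its RNA per cell cannot be told apart, for Tgm2 and for every gene below.

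Part of the Tgm2 gene is covered by Rprd1b on the opposite strand, which spans chr2:158028497-158132297, and whether the counting used strand is not stated. Rprd1b encodes a regulator of RNA polymerase II and was looked at for its position, with results in view. It rose by 0.32 ± 0.09 in IL-4 ears (limma, adjusted p = 0.0239) and by 0.33 ± 0.09 in IL-31 ears (adjusted p = 0.0381), and measured 0.20 ± 0.09 in IL-13 ears (adjusted p = 0.142). These differences have the opposite sign to those of Tgm2. For Tgm7, the nearest measured gene other than Tgm5 was Lcmt2, which differed by 0.22 ± 0.12 in IL-4 ears (adjusted p = 0.210).

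Tgm1 showed 3 low libraries, all of them PBS. It measured 6.38, 7.10, 6.85, 7.28 and 7.10 log2 CPM in IL-4 ears, 7.13, 6.34, 7.80, 7.2 and 7.09 in IL-13 ears, 6.81, 6.68, 7.34, 7.43 and 6.89 in IL-31 ears, and 5.95, 4.56, 4.49, 6.66 and 7.03 in PBS ears. PBS libraries 4 and 5 lay within the range of the cytokine libraries, and PBS libraries 1, 2 and 3 lay below all 15 of them. The difference from PBS was 1.21 for IL-4, 1.38 for IL-13 and 1.29 for IL-31, with an SE of 0.39 in each. This SE uses the spread shared by the 4 groups. The SD of Tgm1 was 1.18 in PBS ears, against 0.35, 0.52 and 0.33 in IL-4, IL-13 and IL-31 ears. The SE therefore understates the error of a comparison with PBS. Once PBS libraries 1, 2 and 3 were left out the difference was 0.10, 0.27 and 0.18. This omission, used again below, leaves only PBS libraries 4 and 5 as control. It removes the libraries low in Tgm1, so the smaller difference was built in. With 1 library left out at a time the difference was 0.89 to 1.53 for IL-4, 1.06 to 1.70 for IL-13 and 0.98 to 1.62 for IL-31. The 3 cytokine groups lay close together, the largest difference among them being -0.17 ± 0.39 for IL-4 minus IL-13.

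Tgm3 differed less between the groups than Tgm1 did. It measured 6.66, 7.61, 7.27, 7.37 and 7.0 log2 CPM in IL-4 ears, 7.39, 6.64, 7.63, 7.34 and 7.09 in IL-13 ears, 7.24, 7.37, 7.25, 7.35 and 7.24 in IL-31 ears, and 6.55, 6.88, 6.05, 7.23 and 7.45 in PBS ears. In IL-31 ears the SD over libraries was 0.07, against 0.56 in PBS ears, and the groups overlapped in every comparison. The difference from PBS was 0.35 ± 0.22 for IL-4, 0.39 ± 0.22 for IL-13 and 0.46 ± 0.22 for IL-31. Leaving out PBS libraries 1, 2 and 3 made these -0.16, -0.12 and -0.05. That left as control only PBS libraries 4 and 5, the highest of the PBS libraries in Tgm3, so a drop was built into this omission. With 1 library left out at a time the differences stayed positive, at 0.15 to 0.50, 0.19 to 0.54 and 0.26 to 0.61.

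Tgm5 did not follow Tgm1 and Tgm3 across libraries. It measured 5.03, 5.05, 5.10, 4.83 and 5.17 log2 CPM in IL-4 ears, 5.01, 5.13, 5.59, 4.77 and 5.00 in IL-13 ears, 4.79, 4.31, 4.38, 4.68 and 4.77 in IL-31 ears, and 5.23, 4.53, 5.83, 4.43 and 4.28 in PBS ears. PBS libraries 1 and 3, which were low in Tgm1, were the 2 highest PBS libraries in Tgm5. The difference from PBS was 0.18 ± 0.22 for IL-4, 0.24 ± 0.22 for IL-13 and -0.27 ± 0.22 for IL-31, and without PBS libraries 1, 2 and 3 it was 0.68, 0.75 and 0.23. That omission left as control only PBS libraries 4 and 5, the lowest of the PBS libraries in Tgm5, so a rise was built in. Between cytokines, all 5 IL-4 libraries lay above all 5 IL-31 libraries, with a difference of 0.45 ± 0.22, and IL-13 minus IL-31 was 0.52 ± 0.22 with overlapping ranges. Among all genes tested, 2.14% had their IL-4 libraries wholly above their IL-31 libraries.

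**Figure D2:**
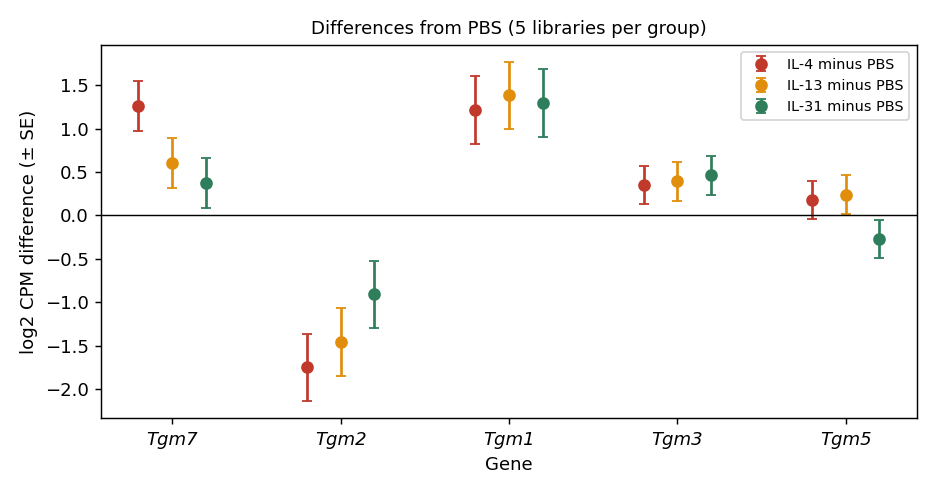
Difference of each cytokine group from PBS in log2 CPM (vertical axis, ± SE, 5 libraries per group) for the 5 genes. Tgm7 is highest for IL-4 at 1.26 and Tgm2 lowest for IL-4 at -1.75, while the 3 cytokines give Tgm1 nearly the same difference, 1.21 to 1.38.

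Counted against the threshold of the fit, an adjusted p under 0.05 over all 16461 genes tested, 3 of the 5 genes passed for IL-4, with Tgm7 and Tgm1 higher and Tgm2 lower than in PBS ears, where 17.8% of all genes passed. For IL-13 there were 2, Tgm1 higher and Tgm2 lower, where 19.7% of all genes passed, and for IL-31 none, where 6.38% passed. At an unadjusted p under 0.05, 3921 of all genes passed for IL-31. The libraries of 1 member, Tgm7, did not overlap between IL-4 and PBS, where 8.53% of all genes did not overlap and 2.64% lay wholly above. No member was without overlap between IL-13 and PBS or between IL-31 and PBS, where 7.52% and 4.36% of all genes were. The members were chosen with these comparisons known, so the counts are a description, and the 3 comparisons share the PBS libraries.

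The call for Tgm7 in IL-4 ears held in all 30 alternatives tried. Since Tgm7 was set apart by its levels in these libraries, this is a description and no independent support. Alternatives that left out a library of a group not compared kept the difference unchanged and could alter only its error and adjusted p. The call for Tgm2 held in 29 of 30 for IL-4 and 28 of 30 for IL-13. Both were lost without PBS libraries 1, 2 and 3, where the differences were -1.54 and -1.25. Tgm1 passed in 20 of 30 for IL-4, where the omission of a single library ended it for PBS libraries 1, 2 and 3 (1.26, 0.91 and 0.89) and for IL-4 libraries 2, 3, 4 and 5 (1.17, 1.23, 1.12 and 1.17). Fitting only the 2 groups compared ended the calls of Tgm1 for IL-4 and IL-13 and of Tgm2 for IL-13, and omitting the variance trend ended that of Tgm1 for IL-4. Both Tgm1 calls also ended without PBS libraries 1, 2 and 3 together. Tgm1 passed in 25 of 30 for IL-13, where it was lost without PBS library 2 (1.08), PBS library 3 (1.06) or IL-13 library 3 (1.20). For IL-31 Tgm1 passed in 6 of 30, which were those without PBS library 4 (1.52), PBS library 5 (1.62) or IL-13 library 2 (1.29), the stricter filter, library weights (1.5) and the replicate block. Tgm7 passed for IL-13 without IL-13 library 1 and after quantile normalization (0.85). Tgm5 passed for IL-4 and IL-13 without PBS libraries 1, 2 and 3, where a rise was built in.

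Within each library, Tgm7 and Tgm2 were set against the mean of the 3 cornification enzymes Tgm1, Tgm3 and Tgm5, as a difference in log2 CPM per 1000 bases of exon. Tgm2 lay -2.04, -2.98, -2.40, -1.73 and -3.43 from that mean in IL-4 libraries 1 to 5, -0.86, -2.03, -3.15, -2.77 and -2.77 in the IL-13 libraries, -1.38, -1.87, -1.05, -1.71 and -1.94 in the IL-31 libraries, and -0.58, 0.08, 1.09, -1.40 and -0.14 in the PBS libraries. In 2 of the 5 PBS libraries, 2 and 3, Tgm2 was above the mean of the cornification enzymes, and in none of the 15 cytokine libraries was it. PBS libraries 2 and 5, at 0.08 and -0.14, lay so near that mean that their side of it can depend on the exon lengths used. The group means were -2.51 ± 0.69, -2.32 ± 0.91 and -1.59 ± 0.37 in IL-4, IL-13 and IL-31 ears, against -0.19 ± 0.91 in PBS ears (SD, n = 5), so the distance to PBS was -2.32, -2.12 and -1.40. That distance was, once PBS libraries 1, 2 and 3 were left out, -1.74, -1.55 and -0.82.

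Tgm7 lay -2.35 ± 0.39 from the mean of the cornification enzymes in IL-4 ears, -3.10 ± 0.75 in IL-13 ears, -3.16 ± 0.72 in IL-31 ears and -3.03 ± 0.66 in PBS ears (log2 CPM per 1000 bases, SD, n = 5). The IL-4 libraries ranged from -2.87 to -1.83 and the PBS libraries from -3.99 to -2.26, and so overlapped. The distance to PBS was 0.68 for IL-4, -0.07 for IL-13 and -0.13 for IL-31. With PBS libraries 1, 2 and 3 left out it was 1.31, 0.56 and 0.50 for Tgm7. Those libraries are the ones low in Tgm1, which is part of the mean, so a shift was built into this omission. With 1 library left out at a time, the distance to PBS ranged over -0.30 to 0.18 for IL-13 and -0.37 to 0.13 for IL-31. With the keratins Krt1 and Krt10, which mark suprabasal keratinocytes, in place of the 3 enzymes, it was 0.11, -1.18 and -0.99.

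**Figure D3:**
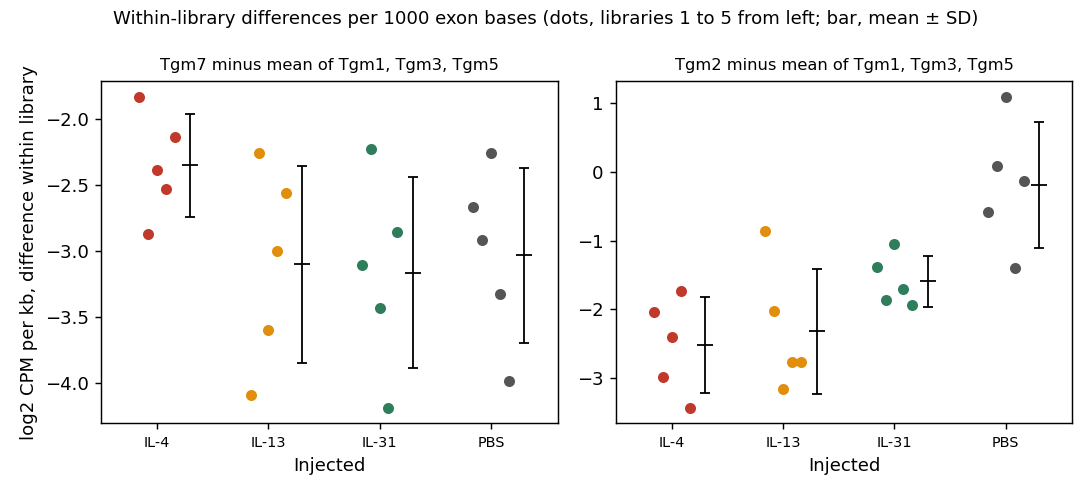
Distance of Tgm7 (left) and of Tgm2 (right) from the mean of Tgm1, Tgm3 and Tgm5 in the same library, in log2 CPM per 1000 bases of exon (vertical axis), for the 5 libraries of each injected solution with mean and SD. Tgm2 lies below the mean of the cornification enzymes in all 15 cytokine libraries and above it in 2 of 5 PBS libraries, narrowly in library 2 (0.08). Tgm7 lies below it in all 20 libraries.

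The 5 genes were also set beside markers of the cells an ear pinna holds. Basal keratinocyte keratin Krt5 was at 13 to 13.78 log2 CPM over all libraries, and markers of muscle, fibroblasts, endothelium and macrophages were all detected. Of the defining markers measured, only the hair follicle keratins Krt71 and Krt35 were at the table's lowest value in any library, Krt71 in 6 and Krt35 in 6 of the 15 cytokine libraries. Ly6g, the defining marker of neutrophils, was not measured, and the neutrophil sum below rests on 11 of 13 listed markers. Over the 11 suprabasal markers, the summed level was 31400 to 56500 CPM in IL-4 ears, 32900 to 77600 in IL-13 ears, 47800 to 73600 in IL-31 ears and 7620 to 47000 in PBS ears. PBS libraries 1, 2 and 3 had 12150, 10190 and 7617 CPM and PBS libraries 4 and 5 had 47040 and 44350, the same split as for Tgm1. Of the 11 markers, 8 rose in IL-4 ears, 10 in IL-13 ears and 9 in IL-31 ears (limma, adjusted p under 0.05). Among all genes 8.22%, 9.94% and 5.18% rose. The IL-31 count is fragile, since no gene at all passed for IL-31 without PBS library 2. The part of the suprabasal markers in the levels of Tgm1 and Tgm3 was not tested.

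Across the 20 libraries the log2 level of Tgm1 tracked the summed suprabasal markers with a Pearson r of 0.96 (Spearman rho 0.91), and Tgm3 with an r of 0.82 (rho 0.59). Tgm5 gave -0.32 (rho -0.16) and Tgm7 0.14 (rho -0.04). These are descriptions over libraries that share the split among PBS ears, and they share depth and scaling within a library. With the other cell types Tgm7 gave an r of -0.67 for the macrophage sum (rho -0.66), -0.48 for the endothelial sum (rho -0.51), -0.48 for the neutrophil sum (rho -0.46) and -0.48 for the muscle sum (rho -0.45), all of them markers that had lower medians in IL-4 than in PBS ears. Their part in the level of Tgm7 was not tested.

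Tgm2 tracked macrophage markers most closely among the cell types looked at. Over the 13 macrophage markers, the summed level was 282 to 465 CPM in IL-4 ears, 299 to 681 in IL-13 ears, 385 to 727 in IL-31 ears and 628 to 1380 in PBS ears. Of these 13, 7 fell in IL-4 ears and 5 in IL-13 ears, and none passed in IL-31 ears. Among all genes 9.63%, 9.8% and 1.2% fell in IL-4, IL-13 and IL-31 ears, also the background for the endothelial and muscle counts below. Over 20 libraries the r between Tgm2 and the macrophage sum was 0.86 (rho 0.85). It was 0.76 between Tgm2 and the neutrophil sum (rho 0.56) and 0.49 between Tgm2 and the endothelial sum (rho 0.61). IL-13 library 1, the one with high Tgm2, had the highest macrophage sum of its group at 681 CPM and the highest neutrophil sum at 670 CPM, against 299 to 469 and 75.1 to 331 in the other 4. The endothelial sum was 147 to 308 CPM in IL-4 ears, 154 to 268 in IL-13 ears, 254 to 343 in IL-31 ears and 275 to 425 in PBS ears, and 4, 10 and 0 of its 17 markers fell. All 20 skeletal muscle markers fell in IL-4 and in IL-13 ears and none passed in IL-31 ears, and their r with Tgm2 was 0.44. The part of these cell types in the level of Tgm2 was not tested.

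**Figure D4:**
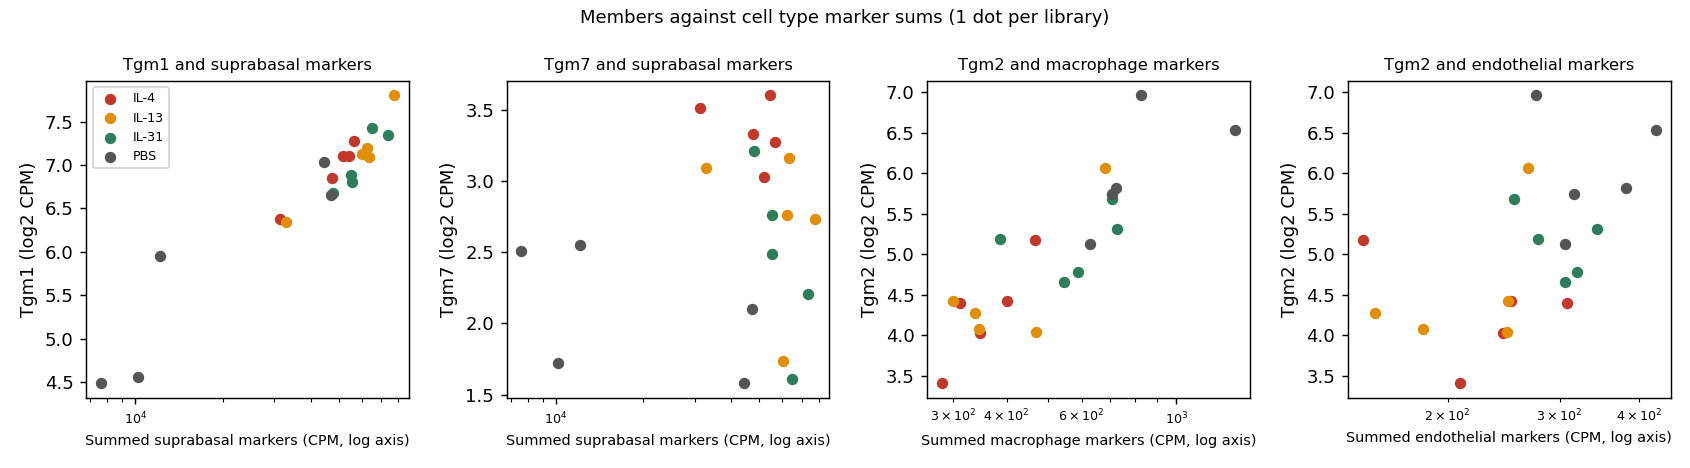
Level of Tgm1, Tgm7 and Tgm2 in log2 CPM (vertical axes) against the summed CPM of suprabasal, macrophage or endothelial markers (horizontal log axes), 1 dot per library and coloured by injected solution. Tgm1 follows the suprabasal sum over all 20 libraries (r = 0.96) and Tgm2 the macrophage sum (r = 0.86), while Tgm7 does not follow the suprabasal sum (r = 0.14).

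Among themselves, Tgm1 and Tgm3 varied together over the 20 libraries, with an r of 0.80 (0.75 after subtracting group means). Tgm2 and Tgm7 varied oppositely, with an r of -0.72 (-0.49 after subtracting group means). The neighbouring genes Tgm5 and Tgm7 gave 0.37, and Tgm3 and Tgm5 gave -0.46. Among all tested genes with a name, those most like Tgm1 over the 20 libraries were Lypd5 (r = 0.99), Klk7 (0.98) and Klk5 (0.98), and those most like Tgm3 were Cntn1 (0.92), Skint11 (0.91) and Pinlyp (0.91). Most like Tgm5 were Moxd1 (0.87), Serpinb11 (0.85) and Aadac (0.83), and most like Tgm2 were Antxr2 (0.96), Basp1 (0.95) and Gmfg (0.94). Most like Tgm7 were Gpbp1l1 (0.85), Marveld3 (0.85) and Smad5 (0.82), a looser match than for Tgm1 or Tgm2.

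Of the other genes of the transglutaminase family, 2 were tested and neither passed the threshold in any comparison with PBS. F13a1, the catalytic subunit of coagulation factor XIII and a product of macrophages, averaged 5.51 ± 0.38, 5.58 ± 0.40 and 6.01 ± 0.47 log2 CPM in IL-4, IL-13 and IL-31 ears, against 6.29 ± 0.78 in PBS ears. The difference was -0.78 ± 0.30 for IL-4 (limma, adjusted p = 0.0815), -0.71 ± 0.30 for IL-13 (adjusted p = 0.109) and -0.28 ± 0.30 for IL-31 (adjusted p = 0.588). Without PBS library 1 it was -1.03 for IL-4 (limma, adjusted p = 0.0225) and -0.95 for IL-13 (adjusted p = 0.0303), and without PBS library 3 it was -0.95 for IL-4 (adjusted p = 0.0462). Without PBS libraries 1, 2 and 3 it was -1.39 (limma, adjusted p = 0.0185) and -1.31 (adjusted p = 0.0363). Tgm4, the prostate transglutaminase, stood at 0.86 ± 0.56, 0.85 ± 0.84 and 0.19 ± 0.30 log2 CPM in IL-4, IL-13 and IL-31 ears, against 0.74 ± 0.77 in PBS ears, with limma adjusted p-values of 0.874, 0.878 and 0.404. F13b, Epb42 and Tgm6 were not among the genes measured, so they were not analysed here.

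The substrates and partners of the 5 enzymes were taken from 4 lists. They are proteins built into the cornified envelope, enzymes that make the ceramides attached to it, proteases, inhibitors and transcription factors tied to late epidermal differentiation, and partners and substrates of Tgm2. The last list, called the Tgm2 partners below, also holds the lysyl oxidases, which were added as other cross-linking enzymes and are not partners of Tgm2. In IL-4 ears 29 of the 59 tested envelope genes rose and none fell, against 8.22% of all genes that rose and 9.63% that fell (1353 and 1585 genes, or 1761 and 1200 after quantile normalization). The median difference was 0.81, against -0.016 over all genes. The 3 of smallest p were Lce1d at 1.36 ± 0.34, Kprp at 2.02 ± 0.50 and Lce1c at 1.29 ± 0.33 (limma, adjusted p = 0.00959, 0.0101 and 0.0110), genes of late envelope proteins. All 14 tested Lce1 genes were among those that rose, and since they are near-identical copies their separate values are uncertain. The envelope count was 13 without PBS library 2, 18 without PBS library 3, 17 without IL-4 library 4 and 0 with PBS libraries 1, 2 and 3 all left out, where the median was 0.04. It was also 0 when only the IL-4 and PBS libraries were fitted, where the median stayed at 0.81. The calls thus rest on the spread shared with the other cytokine groups. All the suprabasal markers except Krt77 and Dmkn are themselves in the envelope list, so the marker split among PBS ears moves with these genes by construction. The part of that split in the counts was not tested.

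Of the 15 lipid envelope genes, 8 rose in IL-4 ears and none fell, with a median of 0.74. Elovl4, which makes very long fatty acids, measured 0.81 ± 0.17 (limma, adjusted p = 0.00421), Cyp4f39, a fatty acid hydroxylase, 0.66 ± 0.17 (adjusted p = 0.0120) and Aloxe3, an epidermal lipoxygenase, 0.74 ± 0.20 (adjusted p = 0.0156). Aloxe3 was at 0.58 without PBS library 2 (limma, adjusted p = 0.0510). The count was 3, 2 and 5 when PBS library 1, 2 or 3 was left out, 5, 5, 3 and 3 when IL-4 library 2, 3, 4 or 5 was, and 13 without PBS library 5. Omitting the first 3 PBS libraries together left 3, and Elovl4 still passed at 0.68 (limma, adjusted p = 0.0131). Fitting only the IL-4 and PBS libraries left 2 lipid genes. Of the 26 regulators, 11 rose and 1 fell, with a median of 0.26. The transcription factors Trp63 at 0.50 ± 0.10, Rxra at 0.50 ± 0.11 and Rora at 0.55 ± 0.12 were those of smallest p (limma, adjusted p = 0.00285, 0.00538 and 0.00577), and the one that fell was Lgmn, a lysosomal protease, at -0.85 ± 0.23 (adjusted p = 0.0158). Omitting PBS libraries 1, 2 and 3, the regulators counted 3 higher and 1 lower, and Rora passed at 0.50 (limma, adjusted p = 0.0329). With only the IL-4 and PBS libraries fitted, 6 regulators were higher and 0 lower.

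Of the 29 genes in the list of Tgm2 partners, lysyl oxidases included, 1 rose and 4 fell in IL-4 ears, with a median of -0.41. That is 3.45% higher and 13.8% lower, against 8.22% and 9.63% of all genes, and 17.2% in all, near the 17.8% of all genes that passed, so the count does not set the list apart. Sdc4, a cell-surface heparan sulfate proteoglycan, rose by 0.51 ± 0.11 (limma, adjusted p = 0.00382). Loxl1, a lysyl oxidase that cross-links elastin, fell by 1.02 on the log2 scale (SE 0.23, limma adjusted p = 0.00615) and Vtn, the adhesion protein vitronectin, by 0.88 (SE 0.23, adjusted p = 0.0119). The others that fell were Itgb3, an integrin subunit, at -0.55 ± 0.17 (limma, adjusted p = 0.0290), and Vim, the intermediate filament vimentin, at -0.44 ± 0.15 (adjusted p = 0.0405), both named after their values were seen. The total was 8 without PBS library 4, and 3 when IL-4 library 5 was left out or only the IL-4 and PBS libraries were fitted. It was 8, all lower, once PBS libraries 1, 2 and 3 were omitted, with Loxl1 at -1.12 (limma, adjusted p = 0.0300).

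In IL-13 ears 32 of the 59 envelope genes rose and none fell, with a median of 1.19 against -0.028 over all genes, and 9.94% of all genes rose and 9.8% fell (1637 and 1613 genes, or 1910 and 1199 after quantile normalization). The desmosomal genes Jup at 1.13 ± 0.25 and Pkp1 at 1.03 ± 0.23 and the main envelope protein gene Lor at 2.47 ± 0.57 had the smallest p (limma, adjusted p = 0.00555, 0.00574 and 0.00598). Among the 15 lipid envelope genes 13 rose, led by Cyp4f39 at 0.76 ± 0.17, Elovl4 at 0.70 ± 0.17 and Abhd5, a lipase cofactor, at 0.71 ± 0.18 (limma, adjusted p = 0.00528, 0.00843 and 0.0104), and the count was 6 without PBS library 2 and 8 without IL-13 library 3. Among the 26 regulators 12 rose, led by Cebpa at 0.94 ± 0.17, Rxra at 0.56 ± 0.11 and Ovol1 at 1.01 ± 0.23 (limma, adjusted p = 0.00198, 0.00267 and 0.00592), and the count was 7 without PBS library 2 and 7 without IL-13 library 3. When PBS libraries 1, 2 and 3 were left out, 0 envelope, 2 lipid and 1 regulator genes passed, with medians of 0.25, 0.22 and 0.23. Fitting only the IL-13 and PBS libraries left 1 envelope, 1 lipid and 2 regulator genes, with the medians of the main fit unchanged. Of the 29 Tgm2 partners 2 rose and 5 fell (6.9% and 17.2%, against 9.94% and 9.8% of all genes), with Sdc4 at 0.47 ± 0.11, the adhesion receptor Adgrg1 at 0.63 ± 0.17 and Itgb3 at -0.56 ± 0.17 of smallest p (limma, adjusted p = 0.00560, 0.0154 and 0.0252). The others that fell were Tgfb1, Loxl1, S100a4 and Col1a1, at -0.44, -0.70, -0.37 and -0.72 (limma, adjusted p = 0.0382, 0.0391, 0.0443 and 0.0467), named after their values were seen. That total was 2 without PBS library 2, 4 without PBS library 3, 1 without IL-13 library 3 and 3 without IL-13 library 4, and 3 without PBS libraries 1, 2 and 3. It was 0 when only the IL-13 and PBS libraries were fitted. Adgrg1 was lost without PBS library 2 or IL-13 library 3 (0.56 and 0.52), and Itgb3 without PBS libraries 2 or 3 or IL-13 libraries 3 or 4 (-0.54, -0.49, -0.45 and -0.47).

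In IL-31 ears, where none of the 5 transglutaminases passed, 28 of the 59 envelope genes rose, with a median of 0.96 against -0.045 over all genes, and 5.18% of all genes rose and 1.2% fell. Ppl, a plakin of the envelope, at 0.71 ± 0.16, Lor at 2.43 ± 0.57 and the desmosomal cadherin gene Dsg1a at 1.20 ± 0.28 had the smallest p (limma, adjusted p = 0.0221, 0.0223 and 0.0231). Of the lipid envelope genes 8 rose, led by Smpd1 at 0.75 ± 0.17, Abhd5 at 0.73 ± 0.18 and Sdr9c7 at 2.01 ± 0.53 (limma, adjusted p = 0.0221, 0.0273 and 0.0316), and of the regulators 7 rose, led by Cebpa at 0.83 ± 0.17, Rxra at 0.51 ± 0.11 and Grhl1 at 0.80 ± 0.18 (limma, adjusted p = 0.0193, 0.0198 and 0.0221). Among the Tgm2 partners Sdc4 rose by 0.48 ± 0.11 (limma, adjusted p = 0.0214), while Adgrg1 at 0.46 ± 0.17 and Itga5 at -0.59 ± 0.23 did not pass (adjusted p = 0.112 and 0.122). They passed at 0.63 without PBS library 5 for Adgrg1 (limma, adjusted p = 0.00712) and at -0.77 without PBS library 4 for Itga5 (adjusted p = 0.0266).

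The IL-31 counts depended on single libraries. Leaving out a single library, PBS 1, 2 or 3 or IL-31 3 or 5, brought the envelope count to 0, and it was 8 without IL-31 library 1 and 5 without IL-31 library 4. The lipid count was 0 under the same 5 omissions, 2 without IL-31 library 1, 1 without IL-31 library 4, 13 without PBS library 5 and 5 without IL-31 library 2, IL-4 libraries 2 or 3 or IL-13 libraries 1, 4 or 5. The regulator count was 0 under the same 5 omissions, 3 without IL-31 libraries 1 or 4, 13 without PBS library 4 and 14 without PBS library 5. For the Tgm2 partners the count was 0 under the same 5 omissions, 2 without PBS library 4 and 3 without PBS library 5. Each gene named as risen in IL-31 ears lost its call under those 5 omissions, Abhd5 also without IL-31 library 4, and Sdr9c7 also without IL-31 libraries 1 or 4. With PBS libraries 1, 2 and 3 all left out, no gene passed for IL-31, and the medians of the envelope, lipid, regulator and Tgm2 partner lists were 0.14, 0.26, 0.16 and -0.38. Fitting only the IL-31 and PBS libraries also left 0 genes for IL-31.

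**Figure D5:**
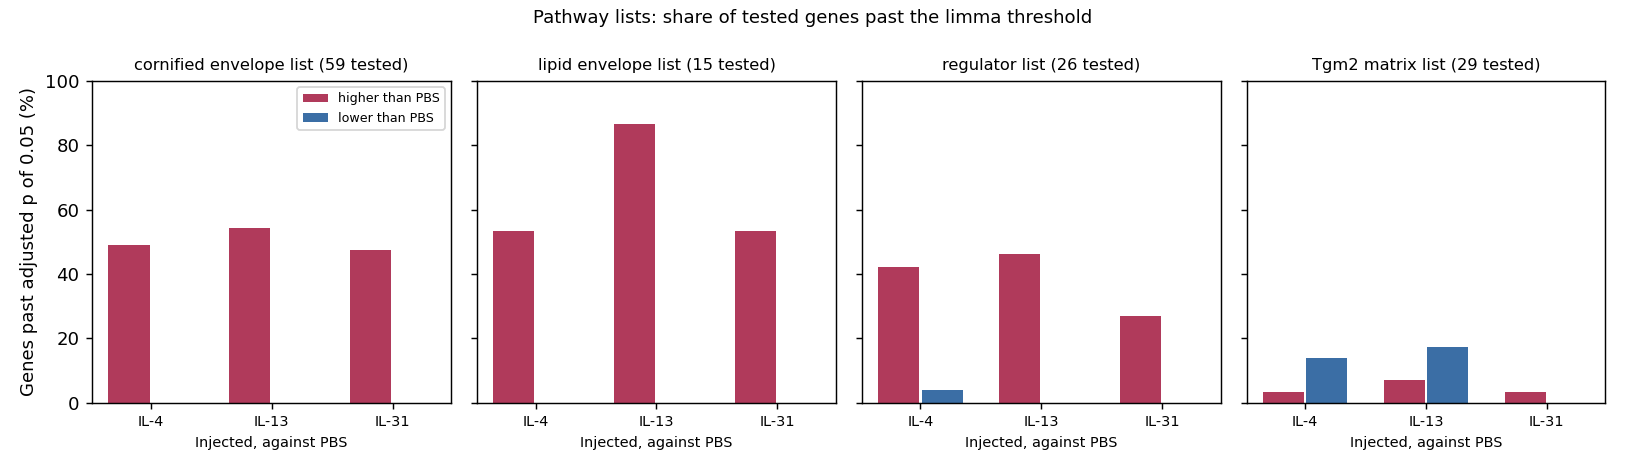
Share of the tested genes in each of the 4 lists past an adjusted p of 0.05 (vertical axis, %), higher or lower than in PBS ears, by injected cytokine (horizontal axis). The envelope, lipid and regulator lists have more genes higher than lower in all 3 comparisons, and the list of Tgm2 partners has 13.8% and 17.2% of its genes lower in IL-4 and IL-13 ears, where 9.63% and 9.8% of all genes were lower.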

How the data were processed

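Values as deposited were log2 CPM (reads scaled to library size, on a log2 scale) for 16669 Ensembl genes. Per the submitters' processing notes, GRCm38 and edgeR (no version) were used. No aligner, counter or annotation is given in the sources used here. The lowest value, -2.684, is an offset of 0.1556 CPM, so differences understate low genes. Spacing of low values gave library sizes of 6.112 to 23.73 M reads (M, mega; median 12.98), with 79.2% to 85.0% of them whole within 0.02 reads, so no count test was run. A count of 3 reads is 0.126 to 0.491 CPM.

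GENCODE M21 gave symbols for 16652 identifiers and exon lengths. limma 3.58.1 (R 4.3.3; lmFit, eBayes with trend) was fitted to 20 libraries and 4 groups over 16461 genes at log2 CPM of at least 0 in 5 libraries, after a check on simulated data. Tests were two-sided, with Benjamini-Hochberg adjustment per comparison. The text names the 5 members, the other family genes, 3 genes of smallest p per list and comparison, and 3 genes most correlated with each member. Members and lists were chosen with earlier results of these data known. Promoters came from RefSeq (GRCm38.p6), matched for 4 members. python 3.11.15, numpy 2.4.6, pandas 2.3.3 and matplotlib 3.10.9 were used. Alternatives were other pseudocounts, filters, scaling, weights, variance models, libraries left out and a replicate block.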

Additional observations from a re-analysis of the deposited data

Results flagged for a closer look

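Tgm2 in IL-13 library 1 stood apart from the other 4 IL-13 libraries. It measured 6.06 log2 CPM, the highest of its group, and the gap to the next library was 0.812 of the group's whole range, above the limit of 0.71 for 5 samples. Chance flags about 1 in 20 groups, and 36 sets of a gene and a group were looked at.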

How the results depend on the processing

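Of the 36 results for named list genes, 31 lost their call in at least 1 alternative, Adgrg1 and Itga5 gained one for IL-31, 3 changed in none, and none changed direction. Leaving out PBS libraries 1, 2 and 3, the differences of IL-4, IL-13 and IL-31 from PBS were 0.10, 0.27 and 0.18 for Tgm1 and -0.16, -0.12 and -0.05 for Tgm3, and for Tgm5 it was 0.68 for IL-4 and 0.23 for IL-31. The distance of Tgm7 from the cornification enzymes was then 1.31 for IL-4, and measured against Krt1 and Krt10 it was 0.11, -1.18 and -0.99, with -3.24 and -2.27 for Tgm2 in IL-13 and IL-31. F13a1 was -1.39 for IL-4 (limma, adjusted p = 0.0185) and -1.31 for IL-13 (adjusted p = 0.0363) without those 3 libraries.

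Counts are given in the order IL-4, IL-13 and IL-31. Genes called were 2938, 3250 and 1050. With only the 2 groups compared in the fit they were 1269, 1134 and 0, with 0, 1 and 0 envelope, 2, 1 and 0 lipid, 6, 2 and 0 regulator and 3, 0 and 0 Tgm2 partner genes. With PBS libraries 1, 2 and 3 left out they were 1200, 385 and 0, with 0, 0 and 0 envelope, 3, 2 and 0 lipid, 4, 1 and 0 regulator and 8, 3 and 0 partner genes. Library weights gave 1667 genes for IL-31, 692 for IL-4 minus IL-31 and 535 for IL-13 minus IL-31, 13 lipid genes for IL-4 and 13 for IL-31, 12 regulators for IL-31 and 3 and 2 partners for IL-13 and IL-31. Without the variance trend 4 lipid genes passed for IL-31. For IL-4 minus IL-31, fitting only those groups called 3 genes and the replicate block 2. The causes were not tested.

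Leaving out 1 library at a time, genes called ranged over 1885 to 3553, 1995 to 4703 and 0 to 3029, and over 0 to 304 for IL-4 minus IL-31 and 0 to 297 for IL-13 minus IL-31. Envelope genes ranged over 13 to 35, 24 to 36 and 0 to 34, lipid genes over 2 to 13, 6 to 13 and 0 to 13, regulators over 8 to 15, 7 to 15 and 0 to 14, and partners over 3 to 8, 1 to 10 and 0 to 3. F13a1 ranged over -1.03 to -0.58 for IL-4 and -0.95 to -0.50 for IL-13. Whether replicate numbers pair the samples is not stated. Over 30 pairs of libraries with the same number, deviations from group means correlated at -0.24 to 0.49 (median 0.04). Over 120 pairs with different numbers they correlated at -0.56 to 0.45 (median 0.02), so no pairing was visible. The replicate block gave 2952, 3252 and 1247 genes. Quantile normalization called 1761 genes higher and 1200 lower for IL-4, against 1353 and 1585, and 1910 and 1199 for IL-13, against 1637 and 1613. Tgm7 rests on about 33 to 141 reads per library, which limits its precision.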
